A study of Homo sapiens with 8 samples.

Results

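The genes described are DUSP4, DUSP5, DUSP6, SPRY1, SPRY2, SPRY4, SPRED1, SPRED2, ETV4 and ETV5, a group of ERK feedback genes chosen by name from the gene table of an RNA-seq study of the MYC family member MYCL in prostate cancer cells. All 10 were found, each once, among 78691 genes. C4-2B, a castration-resistant prostate adenocarcinoma line, carried either an empty lentiviral vector (control) or a lentivirus expressing human MYCL with EGFP from the EF1A promoter, and was selected with puromycin or by sorting. NCI-H660, a neuroendocrine prostate cancer line, received a non-targeting shRNA (shCtrl) or shRNA against MYCL (shMYCL). The series describes an adenoviral vector for the knockdown, whereas the sample labels speak of stable knockdown, and the sources used here do not settle which applied. Each of the 4 groups had 2 poly(A) libraries, and each line was compared with its own vector control.

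ERK is the last kinase of the RAS-RAF-MEK-ERK cascade, which carries signals from receptor tyrosine kinases to the nucleus. Active ERK induces genes that limit it, so the mRNA of these genes is commonly used as a readout of pathway output. The DUSP members encode phosphatases that remove the activating phosphates from ERK, the SPRY (Sprouty) and SPRED members encode inhibitors acting at or above RAF, and ETV4 and ETV5 encode ETS transcription factors of the PEA3 family. In prostate tissue ETV4 and ETV5 are also known as genes rearranged in a subset of adenocarcinomas.

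Library totals ranged from 15177071 to 32344170 counts. MYCL itself followed the labels. In C4-2B its counts were 371 and 320 with the empty vector, compared with 65524 and 70253 after overexpression. In NCI-H660 it had 1863 and 1602 counts with shCtrl and 165 and 198 with shMYCL. Its log2 fold change was 8.26 (SE 0.12, adjusted p = 3.91e-09 by edgeR's quasi-likelihood test) in C4-2B and −3.06 (SE 0.15, adjusted p = 4.29e-09) in NCI-H660. The defining markers followed the line names. Summed TPM of 8 luminal prostate markers was 1550 to 2500 in C4-2B and 3.63 to 4.16 in NCI-H660, and that of 8 neuroendocrine markers was 991 to 1380 in NCI-H660 and 6.94 to 7.32 in C4-2B. Mitochondrial genes held 9.63% to 10.7% of the counts in C4-2B and 3.50% to 3.83% in NCI-H660.

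The first question was how strongly each feedback gene was expressed in the 2 lines before MYCL was altered. Levels are given as TPM, which scales each library to the same sum and corrects for gene length and so allows genes to be compared. DUSP6, SPRY4, ETV4 and ETV5 were high in NCI-H660 and near the detection limit in C4-2B, and SPRED1 showed the opposite order. DUSP4 was called lower in NCI-H660 but was present in both lines (mean TPM 9.60 in C4-2B control and 7.01 with shCtrl). No call was made for the remaining 4 genes.

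**Figure D1:**
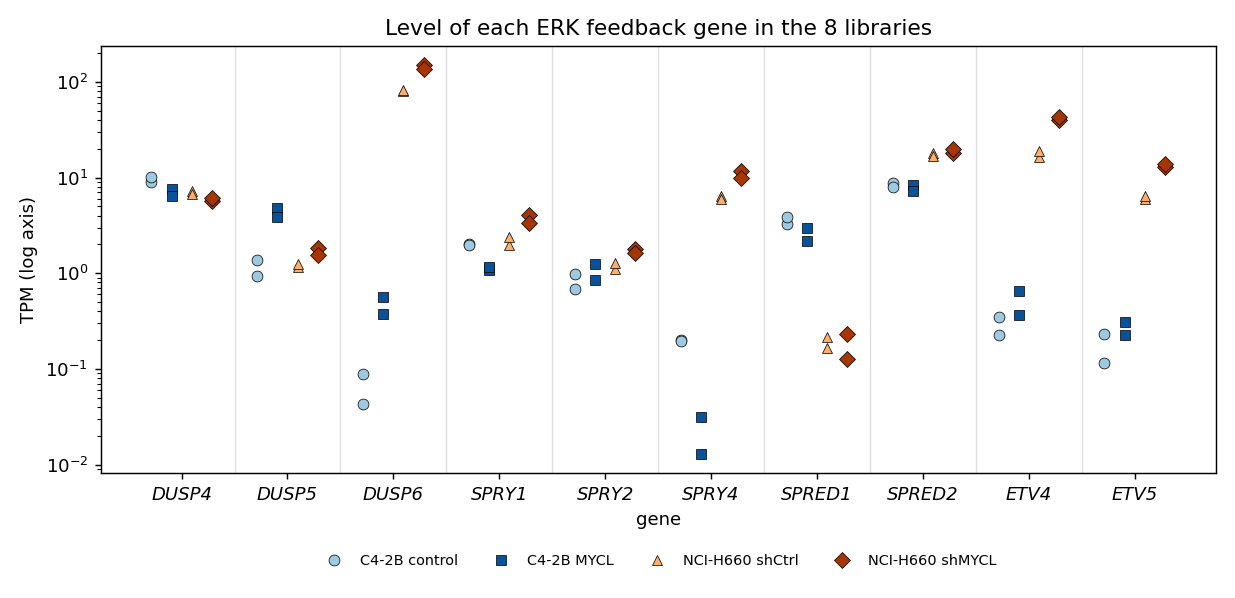
TPM on a log axis (y) for each of the 10 ERK feedback genes (x), with 1 point per library and 2 libraries per group. In NCI-H660 (triangles and diamonds) DUSP6 lies between 81.0 and 149 TPM while in C4-2B (circles and squares) it stays at or below 0.566, and SPRED1 shows the reverse order.

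DUSP6, the phosphatase most specific for ERK in the cytoplasm, had 81.0 and 82.6 TPM in the shCtrl libraries and 0.043 and 0.0888 TPM in the C4-2B controls. These were 1725 and 1961 counts against 4 and 6. DUSP6 was the most abundant of the 10 genes in NCI-H660 and the least abundant in control C4-2B cells. The difference between the lines (NCI-H660 shCtrl minus C4-2B control, fit of all 4 groups) was 8.98 on the log2 scale (SE 0.20, adjusted p = 3.04e-13, edgeR). DUSP6 passed the filter on low counts only through the NCI-H660 libraries, where it was higher, so this call was not independent of that filter. An unnamed gene on the opposite strand shares 28.6% of the DUSP6 exon bases, and whether counting used strand is not given in the sources used here. That gene held at most 56.5 counts in any library.

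ETV4 had 16.6 and 19.1 TPM with shCtrl and 0.227 and 0.345 TPM in C4-2B controls. ETV5 had 6.04 and 6.44 TPM against 0.115 and 0.230 TPM. SPRY4 had 6.34 and 5.93 TPM against 0.200 and 0.194 TPM. For all 3 genes every NCI-H660 library was above every C4-2B library. The log2 differences between the lines were 5.38 for ETV4 (SE 0.23, adjusted p = 1.15e-10, edgeR), 5.17 for ETV5 (SE 0.24, adjusted p = 2.02e-10) and 4.38 for SPRY4 (SE 0.21, adjusted p = 3.26e-10).

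SPRED1, a membrane inhibitor that brings the RAS GTPase-activating protein neurofibromin to RAS, had 3.30 and 3.85 TPM in C4-2B controls and 0.167 and 0.216 TPM in NCI-H660 shCtrl cells, where it rested on 6 and 9 counts. It was lower in NCI-H660 by a log2 difference of −5.10 (SE 0.30, adjusted p = 2.55e-09, edgeR). SPRED1 passed the filter on low counts only through the C4-2B libraries, where it was higher, so this call was likewise not independent of that filter. DUSP4, a nuclear phosphatase of ERK and other MAP kinases, had 9.03 and 10.2 TPM in C4-2B controls and 7.31 and 6.71 TPM with shCtrl, with a log2 difference of −1.05 (SE 0.11, adjusted p = 8.04e-07). SPRED2 had 8.70 and 8.0 TPM in C4-2B controls and 17.9 and 16.7 TPM with shCtrl. Its log2 difference of 0.45 (SE 0.10, adjusted p = 0.000924, edgeR) lay under the minimum of 0.5 set for a call. On the log2(TPM + 1) scale with limma, where the median of all genes moved to 0.525, the difference was 0.97 for SPRED2 (adjusted p = 8.13e-05) and −0.40 for DUSP4 (adjusted p = 0.0154), so the first was called and the second was not.

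DUSP5, SPRY1 and SPRY2 were low in both lines. DUSP5, an ERK phosphatase of the nucleus, had 1.36 and 0.925 TPM in C4-2B controls and 1.15 and 1.26 TPM with shCtrl. SPRY1 had 2.03 and 1.96 TPM against 1.99 and 2.37 TPM, and SPRY2 had 0.981 and 0.692 TPM against 1.10 and 1.27 TPM. The log2 differences were −0.53 (SE 0.31, adjusted p = 0.13, edgeR), −0.65 (SE 0.28, adjusted p = 0.0508) and −0.10 (SE 0.38, adjusted p = 0.812). None of the 3 passed the test, although DUSP5 was called without C4-2B control library 2 (−0.79, adjusted p = 0.0497) and SPRY1 without shCtrl library 2 (−0.92, adjusted p = 0.0346). With limma on log2(TPM + 1) centred on each library's median, chosen after seeing the data, both were called lower in NCI-H660 (DUSP5 −0.70, adjusted p = 0.00485, and SPRY1 −0.67, adjusted p = 0.00361). Without centring, the values were 0.05 for DUSP5 and 0.08 for SPRY1, of opposite sign and not called. The direction for these genes thus depended on the scaling. Calls between these lines are common. Of the 10 genes 4 were called higher and 2 lower in NCI-H660, where 36.5% of the 19605 genes tested were called higher and 33.3% lower.

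The second question was what MYCL depletion did in NCI-H660. The transcription factors ETV4 and ETV5, the phosphatase DUSP6 and the inhibitor SPRY4 all rose after knockdown, and no member was called lower. These are also the 4 feedback genes with the large excess in this line, but a link between excess and rise was not tested. SPRY1, SPRY2 and DUSP5, without that excess, had log2 fold changes of 0.80, 0.54 and 0.47 with larger standard errors and were not called. SPRED2 was at 0.12 and DUSP4 at −0.25. A gene was called when its adjusted p was under 0.05 and its log2 fold change at least 0.5 in size. Of the 9 members tested 4 were called higher and 0 lower, beside 7.18% of the 16980 genes tested called higher and 8.99% called lower. The median log2 fold change was 0.71 over the 9 members and −0.003 over all genes tested. In these bulk RNA data, a change in the share of cells expressing a gene and a change in its RNA per cell cannot be told apart.

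ETV4 rose from 313 and 432 counts to 708 and 752. Counts scaled by library size (CPM) were 18.5 and 23.4 with shCtrl and 46.6 and 48.0 with shMYCL. The knockdown libraries were above both controls, with a log2 fold change of 1.18 (SE 0.13, adjusted p = 2.06e-05, edgeR). ETV5 was 13.7 and 15.3 CPM with shCtrl and 30.3 and 32.4 CPM with shMYCL, a log2 fold change of 1.11 (SE 0.13, adjusted p = 3.22e-05). The ratio of summed counts, corrected for library size, was 2.3 for ETV4 and 2.2 for ETV5. ETV1, the other PEA3 factor, was looked at after the values were known. It had 9.21 and 8.72 TPM with shCtrl and 12.6 and 11.1 TPM with shMYCL, and its log2 fold change of 0.39 (SE 0.13, adjusted p = 0.0353) was under the minimum size. Of the exon bases, 1.93% of ETV4 and 2.84% of ETV5 are shared with another gene.

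DUSP6 rose from 102 and 106 CPM to 175 and 165 CPM, a log2 fold change of 0.71 (SE 0.10, adjusted p = 0.000163, edgeR). SPRY4, which blocks signalling from receptors to RAF, rose from 18.1 and 17.5 CPM to 33.2 and 29.3 CPM, a log2 fold change of 0.81 (SE 0.13, adjusted p = 0.000377). In both genes the difference between groups was several times the gap between replicates. The 4 calls were made in edgeR whichever library was left out, and were lost only with limma on TPM values without a filter on low genes (adjusted p from 0.0802 to 0.126) and, for DUSP6 and SPRY4, at a minimum log2 fold change of 1.

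Promoter sequence of the 2 feedback inhibitors that rose together is shown because they differ in the motifs they hold. Both are RefSeq windows on GRCh38.p14, minus strand, 5′ to 3′, from 250 bases before the RefSeq start site through the first 30 bases of the transcript. The DUSP6 window is chr12:89352472-89352751 and the SPRY4 window is chr5:142324218-142324497. Capitals mark matches to the motifs searched, on either strand.
DUSP6: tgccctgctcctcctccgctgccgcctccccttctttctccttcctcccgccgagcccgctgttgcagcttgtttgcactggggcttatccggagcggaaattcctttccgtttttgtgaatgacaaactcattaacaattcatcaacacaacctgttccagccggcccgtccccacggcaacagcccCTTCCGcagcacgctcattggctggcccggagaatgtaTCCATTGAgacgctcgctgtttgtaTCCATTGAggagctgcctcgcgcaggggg
SPRY4: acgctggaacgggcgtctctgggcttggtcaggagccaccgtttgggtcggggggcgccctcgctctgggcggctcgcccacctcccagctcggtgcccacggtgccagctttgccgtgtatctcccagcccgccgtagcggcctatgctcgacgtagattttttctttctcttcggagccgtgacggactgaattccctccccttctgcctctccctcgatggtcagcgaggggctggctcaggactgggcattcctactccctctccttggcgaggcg
In DUSP6 the capitals are 1 ETS core (CGGAAG, on the opposite strand) that begins at position −62 relative to the start site, counted as 0, and 2 copies of TCAATGGA, an octamer bound by the repressor CIC, on the opposite strand at positions −24 and 1. SPRY4 held none of the motifs.

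Promoter windows of 300 bases were at hand for 6 of the 10 genes, DUSP6, SPRY1, SPRY2, SPRY4, SPRED1 and SPRED2, as 10 windows. The E-box CACGTG, to which MYC and MYCL bind with MAX, was in 0 of these 10 windows and in 7.26% of all 35116 windows. CGGAAG was in 3 of the 10, in DUSP6, SPRY1 and SPRED2, and in 19.5% of all windows. The AP-1 motif TGANTCA was in 1, of SPRED2, and in 7.71% of all. The CIC octamer TGAATGAA, the cyclic AMP response element TGACGTCA and the CArG box of SRF were in none of the 10 and in 1.65%, 1.85% and 1.29% of all windows. TCAATGGA was searched after the sequences had been seen, with the spellings TGAATGGA and TCAATGAA. Any of the 4 CIC octamers was in 3.77% of all windows and in 1 of the 10, that of DUSP6. Since the spelling was taken up after this sequence had been seen, its presence there is only a description. A match in these letters is not a measured binding site, and motifs outside these windows were not searched.

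The other members of NCI-H660 did not pass the test. SPRY1, a Sprouty inhibitor, was 2.48 and 3.57 CPM with shCtrl and 5.73 and 4.85 CPM with shMYCL, with a log2 fold change of 0.80 (SE 0.28, adjusted p = 0.0506, edgeR). The knockdown libraries lay above both controls. SPRY1 was called with relative log expression scaling (adjusted p = 0.0477), without a filter (0.0429), with at least 10 counts in every library (0.0323), with the replicate number as a block (0.0314) and without shCtrl library 2 (0.018). SPRY2 was 1.36 and 1.68 CPM against 2.37 and 2.04 CPM (0.54, SE 0.39, adjusted p = 0.348), and DUSP5 was 1.53 and 1.79 CPM against 2.50 and 2.11 CPM (0.47, SE 0.38, adjusted p = 0.4). SPRED2 was 46.0 and 45.7 CPM against 47.8 and 51.9 CPM (0.12, SE 0.11, adjusted p = 0.471).

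DUSP4 was the one member with lower values after knockdown, at 23.4 and 22.7 CPM with shCtrl and 18.8 and 20.1 CPM with shMYCL, and its log2 fold change of −0.25 (SE 0.13, unadjusted p = 0.076, adjusted p = 0.183, edgeR) did not pass. DESeq2 also called 0 members lower. SPRED1 had 6 and 9 counts against 10 and 6 and was not tested. Of the 10 members, 8 had both knockdown libraries above both controls, 1 (DUSP4) had both below and 1 (SPRED1) overlapped. With 2 libraries a side such separation is common, since 63.1% of all genes tested had it in one direction or the other. An exact permutation test of 2 against 2 libraries cannot go below p = 0.33, so the calls rest on the spread shared across genes. Some neuroendocrine markers moved with the same contrast. Summed TPM of the 8 markers was 1220 to 1380 with shCtrl and 991 to 1110 with shMYCL. Of the 8, 2 were called lower and 0 higher, beside 8.99% and 7.18% of all genes tested. Their part in the feedback gene values was not tested.

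**Figure D2:**
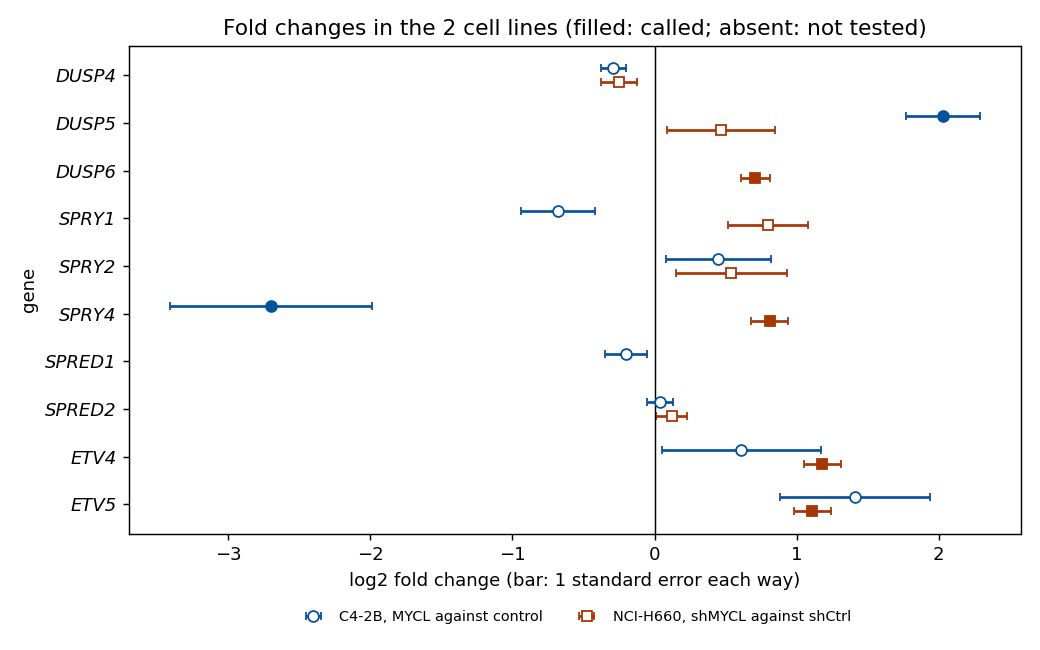
Log2 fold change (x, bars 1 standard error each way) of each gene (y) for MYCL against control in C4-2B (circles) and shMYCL against shCtrl in NCI-H660 (squares), filled where called. DUSP6, SPRY4, ETV4 and ETV5 are filled to the right in NCI-H660, while in C4-2B the filled points are DUSP5 to the right and SPRY4 to the left.

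The third question was what MYCL overexpression did in C4-2B. The nuclear ERK phosphatase DUSP5 rose about 4-fold, SPRY4 fell from a level already near the limit of detection, and the remaining 7 members tested were not called. Thus 1 member was called higher and 1 lower, beside 11.8% of the 16866 genes tested called higher and 8.12% called lower. SPRY4 passed the filter on low counts only through the control libraries, where it was higher, so its call was not independent of that filter. The median log2 fold change of the 9 members tested was 0.04 and that of all genes tested −0.002.

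DUSP5 had 83 and 41 counts in control cells and 175 and 143 in MYCL cells, which were 2.55 and 1.72 CPM against 9.49 and 8.18 CPM. Both MYCL libraries were above both controls. The log2 fold change was 2.03 (SE 0.26, adjusted p = 0.000516, edgeR), and it stayed between 1.31 and 2.35 under every alternative run, with a highest adjusted p of 0.0429. In TPM its levels were 4.77 and 3.83 in MYCL cells, above the 1.83 and 1.54 of the shMYCL cells. DUSP5 thus had its highest level in MYCL-overexpressing C4-2B cells, and the other 3 groups lay between 0.925 and 1.83 TPM.

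SPRY4 had 28 and 15 counts in control cells and 3 and 1 in MYCL cells. The ratio of summed counts, corrected for library size, was 0.15, with a 95% counting interval of 0.038 to 0.4 that covers counting error only. The fitted log2 fold change was −2.70 (SE 0.71, adjusted p = 0.0179, edgeR). The call was lost with DESeq2 (−2.75, adjusted p = 0.0641), without control library 1 (−2.45, adjusted p = 0.176), without control library 2 (−2.90, adjusted p = 0.0589), with limma on unfiltered TPM values (adjusted p = 0.0859) and without MYCL library 2 (−2.17, adjusted p = 0.102).

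DUSP6 had 4 and 6 counts in control cells and 16 and 8 in MYCL cells and did not pass the filter on low counts. The ratio of summed counts was 3.8 (95% counting interval 1.7 to 8.8). In the fit of all 4 groups, where the NCI-H660 libraries carried it through the filter, its log2 fold change was 1.87 (SE 0.48, adjusted p = 0.0116, edgeR), and in the fit of C4-2B alone with no filter it was 1.81 (adjusted p = 0.107). ETV5 had 12 and 8 counts in control cells and 14 and 20 in MYCL cells, with a log2 fold change of 1.41 (SE 0.53, adjusted p = 0.0678). In C4-2B alone ETV5 passed the filter on low counts only through the MYCL libraries, where it was higher. It passed the test in the fit of all 4 groups (1.40, adjusted p = 0.00967, edgeR). ETV4, at 12 and 13 counts against 16 and 9, had a log2 fold change of 0.61 (SE 0.56, adjusted p = 0.437), and its groups overlapped. The highest TPM of these 3 genes in any C4-2B library was 0.656, and the lowest in any NCI-H660 library was 6.04.

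DUSP4 was 40.4 and 45.0 CPM in control cells and 36.3 and 33.2 CPM in MYCL cells. Its log2 fold change of −0.29 (SE 0.09, adjusted p = 0.0385, edgeR) passed on p and not on size. SPRY1 was 4.33 and 4.16 CPM in control cells and 2.28 and 3.03 CPM in MYCL cells (−0.68, SE 0.26, adjusted p = 0.0733), and without MYCL library 2 it was called (−0.90, adjusted p = 0.0432). SPRY2 (0.45, SE 0.37, adjusted p = 0.384), SPRED1 (−0.20, SE 0.15, adjusted p = 0.314) and SPRED2 (0.04, SE 0.09, adjusted p = 0.795) had overlapping groups. SPRED2 stayed at 28.7 to 31.9 CPM over the 4 C4-2B libraries.

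In C4-2B, 3 of the 10 members had both MYCL libraries above both controls, 3 had both below and 4 overlapped, beside 69.1% of all genes tested that separated in one direction or the other. Other markers moved with the same contrast. The summed TPM of the 8 luminal markers was 2490 to 2500 in control and 1550 to 1690 in MYCL cells. Of the 8, 3 were called lower and 0 higher, beside 8.12% and 11.8% of all genes tested. Of 7 stromal, endothelial and immune markers 3 could be tested and CD68, a lysosomal protein, was called higher (1.53). Summed TPM of the 7 was 9.5 to 12.1 in control and 25.2 to 27.1 in MYCL cells, with PTPRC and DCN at 0 in all 4 libraries. Their part in the feedback gene values was not tested.

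The fourth question was whether the effect of high against low MYCL differed between the lines. The effect was taken as MYCL minus control in C4-2B and as shCtrl minus shMYCL in NCI-H660, so that a positive value means higher with high MYCL in both. The 2 MYCL contrasts were unequal, and MYCL itself had a difference of effects of 5.19 (SE 0.21) on the log2 scale. A difference in the size of a member's effect therefore cannot be told apart from this difference in MYCL. For DUSP5, DUSP6, ETV4 and ETV5 the effect was higher in C4-2B, and for SPRY4 and DUSP4 it was lower. Thus 4 were called higher and 2 lower of 10 tested, beside 9.59% of the 19605 genes tested called higher and 8.33% called lower. The 4 include DUSP6, which was not tested in C4-2B alone and entered only because of its NCI-H660 counts. The same 8 libraries enter this comparison and those within each line.

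ETV5 had an effect of 1.40 (SE 0.35) in C4-2B and −1.11 (SE 0.15) in NCI-H660, with a difference of 2.51 (SE 0.38, adjusted p = 0.000689, edgeR). DUSP6 had 1.87 (SE 0.48) and −0.71 (SE 0.10), with a difference of 2.58 (SE 0.49, adjusted p = 0.00296). The C4-2B side of both rested on at most 20 counts a library. Within C4-2B, ETV5 reached the filter on low counts only in the MYCL libraries, where it was higher. DUSP6 passed the filter on low counts only through the NCI-H660 libraries, and since C4-2B alone gave an adjusted p of 0.107 without a filter, its direction in C4-2B was not established. DUSP5 had 2.03 (SE 0.28) and −0.47 (SE 0.32), with a difference of 2.50 (SE 0.43, adjusted p = 0.00143). ETV4 had 0.63 (SE 0.41) and −1.18 (SE 0.15), with a difference of 1.81 (SE 0.44, adjusted p = 0.0116). Without MYCL library 1 of C4-2B the difference was 2.06 for DUSP6 (adjusted p = 0.0526) and 1.40 for ETV4 (adjusted p = 0.149), and without control library 1 it was 1.51 for ETV4 (adjusted p = 0.064).

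SPRY4 went the same way in both lines, with effects of −2.71 (SE 0.51) in C4-2B and −0.82 (SE 0.15) in NCI-H660. It was lower in the high-MYCL state each time, although its C4-2B side rested on 1 to 28 counts a library. The difference was −1.90 (SE 0.56, adjusted p = 0.0302, edgeR), but DESeq2 gave an adjusted p of 0.068, the call was lost without control library 1 (0.12), MYCL library 2 (0.202) or shMYCL library 2 (0.0643), and on the log2(TPM + 1) scale, which compresses genes below 1 TPM, the difference turned to 0.49. DUSP4 had effects of −0.30 (SE 0.10) and 0.24 (SE 0.11), each small, and a difference of −0.55 (SE 0.15, adjusted p = 0.0247). Its adjusted p ranged from 0.0206 to 0.116 over the alternatives, and the call was lost with DESeq2 and without control library 2, MYCL library 2, shCtrl library 1 or shMYCL library 1. SPRY1 was at −0.68 and −0.80 with a difference of 0.12 (SE 0.41, adjusted p = 0.924), and SPRY2 (0.98, SE 0.53, adjusted p = 0.224), SPRED1 (0.08, SE 0.49, adjusted p = 0.99) and SPRED2 (0.15, SE 0.14, adjusted p = 0.499) were also not called.

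**Figure D3:**
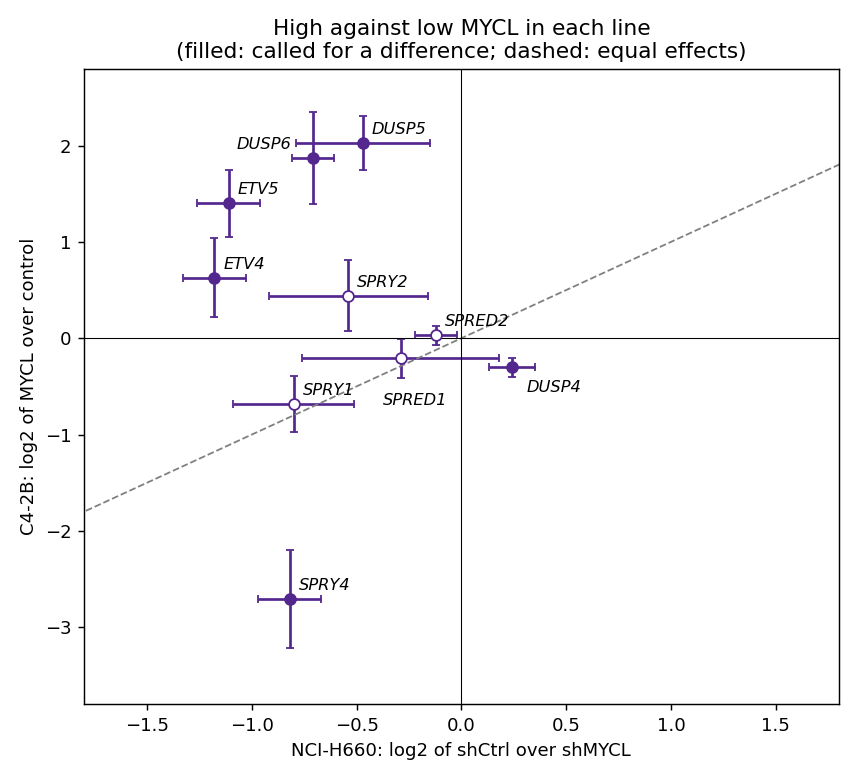
Effect of high against low MYCL on the log2 scale in NCI-H660 (x, shCtrl over shMYCL) and C4-2B (y, MYCL over control), fit of all 4 groups, bars 1 standard error each way, filled where the difference between the effects was called. DUSP5, DUSP6, ETV4 and ETV5 lie in the upper left, SPRY4 lies in the lower left below the dashed line of equal effects, and SPRY1 lies close to that line.

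The rest of the pathway was described from lists of related genes, whose counts stand beside 11.8% of all genes called higher and 8.12% lower in C4-2B, and 7.18% higher and 8.99% lower in NCI-H660. Of 9 tested relatives of the feedback genes in C4-2B, 4 were called higher and 1 lower, with a median log2 fold change of 0.92. DUSP1 (1.89), an immediate early phosphatase, DUSP10 (1.07), SPRED3 (1.05) and DUSP8 (0.92) rose and DUSP7 (−0.68) fell. In NCI-H660, SPRED3 (1.27) and DUSP8 (0.68) rose after knockdown and the remaining 8 of 10 were not called, with a median of 0.33. SPRED3 and DUSP8 were therefore called higher both with MYCL overexpression in C4-2B and with MYCL knockdown in NCI-H660. The C4-2B call of SPRED3 was close to the threshold (SE 0.36, adjusted p = 0.0466, edgeR). It rested on 34 and 28 counts against 48 and 35, and its dependence on the processing was not tested. The difference in their effect of high against low MYCL was 2.32 (SE 0.47, adjusted p = 0.00418, edgeR) and 1.6 (SE 0.23, adjusted p = 0.00047).

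Among other genes induced by ERK, FOS (4.12), IER3 (2.51) and ERRFI1 (0.92) rose and PHLDA1 (−0.90) fell in C4-2B, of 7 tested. The counts of FOS, an AP-1 subunit, were 18 and 10 with the empty vector, compared with 169 and 143 after MYCL overexpression, whereas IER3 rested on 7 and 3 against 25 and 12. In NCI-H660, of 8 tested, FOSL1 (2.15) and EPHA4 (0.65) rose and CCND1 (−1.07), which encodes cyclin D1, fell after knockdown, with FOSL1 at 7 and 1 counts against 19 and 13. FOS and IER3 passed the filter on low counts only through the MYCL libraries, and FOSL1 only through the shMYCL libraries, where each was higher. CCND1 thus fell where DUSP6, SPRY4, ETV4 and ETV5 rose. The list medians were 0.05 in C4-2B and 0.08 in NCI-H660.

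Of 12 tested genes of the cascade itself, HRAS (−0.87) was the only one called in C4-2B and ARAF (0.72) the only one in NCI-H660, with medians of 0.18 and 0.01. Of 12 adaptors and RAS regulators, FRS3 (1.04), GAB1 (0.71) and SOS2 (0.52) rose in C4-2B and SHC1 (0.51) rose in NCI-H660, with medians of 0.06 and −0.09. Among repressors of the feedback genes and factors of PEA3 protein turnover, ATXN1 (0.97) of 7 tested rose in C4-2B and ETV3 (0.53) of 6 rose in NCI-H660, with medians of −0.08 and 0.13. CIC, the repressor of ETV4, ETV5 and DUSP6, was at −0.08 (SE 0.12, adjusted p = 0.669, edgeR) in C4-2B and 0.10 (SE 0.14, adjusted p = 0.651) in NCI-H660.

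Receptor tyrosine kinases lie above all of these genes. In C4-2B RET (1.73), MET (1.19) and FGFR1 (0.80) rose and IGF1R (−1.06) fell, of 9 tested, with a median of 0.44. In NCI-H660 MET (0.70) and EGFR (0.60) rose and ERBB2 (−0.51) fell after knockdown, of 10 tested, with a median of −0.02. MET was at 5.56 and 6.72 CPM against 13.7 and 14.2 CPM in C4-2B, and at 28.7 and 25.4 CPM against 43.4 and 44.1 CPM in NCI-H660.

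**Figure D4:**
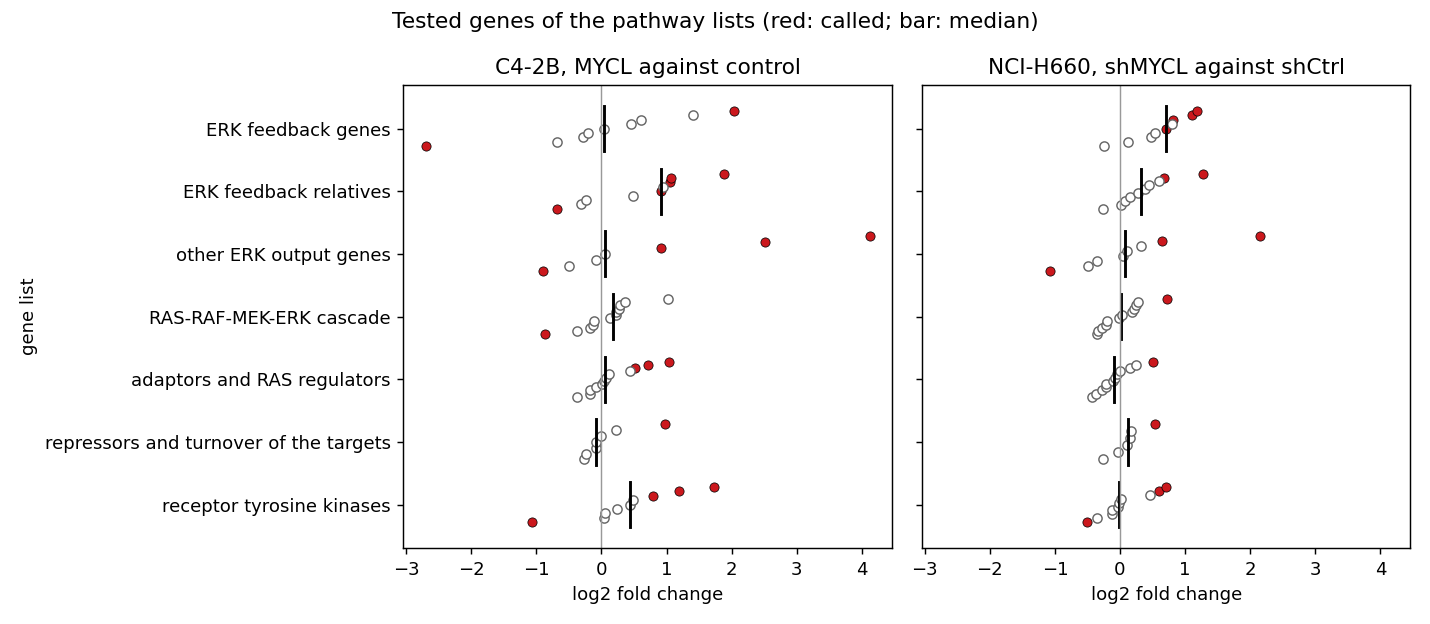
Log2 fold change (x) of each tested gene of the ERK feedback genes and 6 pathway lists (y) in C4-2B (left, MYCL against control) and NCI-H660 (right, shMYCL against shCtrl), red where called, with a bar at the list's median. The median of the feedback genes is 0.04 in C4-2B and 0.71 in NCI-H660, and the cascade genes have medians of 0.18 and 0.01 with 1 red point in each line.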

How the data were processed

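RNA-seq of 8 libraries (2 per group) was analysed. The authors deposited estimated counts per gene, not normalized between libraries, and TPM values, made per the labels from poly(A) paired-end reads with hg38 as the build. The paper gives Ensembl gene lengths for TPM, and the aligner and counter are not given in the sources used here. The TPM table lists 65535 genes. Counts were rounded and tested in edgeR 4.0.16 (R 4.3.3) with TMM scaling, filterByExpr and the quasi-likelihood test. Adjusted p-values are Benjamini-Hochberg values over all genes tested. Each line was fitted alone, and differences between lines in a fit of all 4 groups. A standard error is the size of the log2 fold change over the square root of the F statistic. The test was checked on simulated data.

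The members and gene lists were chosen with earlier results of these data known. All members are named, and from each list the genes behind counts of 5 or fewer, up to 3 per line otherwise. Only the control C4-2B titles say biological replicate, so p-values measure the spread between these libraries, which may be technical. Counts of 15177071 or more per library limit precision for genes with few counts. Alternatives used DESeq2 1.42.0, limma 3.58.1 on log2(TPM + 1) or log2(TPM + 0.1), other filters, scalings and thresholds, a replicate block, and leaving out each library. Positions and exon overlaps came from GENCODE 44, promoters from RefSeq (GRCh38.p14). No promoter was at hand for DUSP4, DUSP5, ETV4 and ETV5, and a planned comparison of member proteins was not run. Some marker genes are not reported here. Tables were made in Python 3.11.15 with pandas 2.3.3.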

Additional observations from a re-analysis of the deposited data

Results flagged for a closer look

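In 6 of the 10 feedback genes the effect of high against low MYCL differed between the lines by the interaction test in edgeR. The difference (C4-2B minus NCI-H660, log2) was 2.58 for DUSP6, 2.51 for ETV5, 2.50 for DUSP5, 1.81 for ETV4, −0.55 for DUSP4 and −1.90 for SPRY4. The values of ETV5, DUSP6, DUSP5, ETV4 and DUSP4 were of opposite sign in the 2 lines, while SPRY4 was lower with high MYCL in both. In fits of each line alone, ETV5, ETV4 and DUSP4 were not called in C4-2B, and DUSP5 and DUSP4 were not called in NCI-H660. A reversal of direction was therefore not established for these genes. DUSP6 passed the filter on low counts only through the NCI-H660 libraries, with 4 to 16 counts in C4-2B, and was not tested in C4-2B alone. Groups of 2 libraries were not tested for outlying samples.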

How the results depend on the processing

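Replicate numbers did not pair the libraries, since the correlation of same-numbered deviations came to −0.019 for the C4-2B pair of groups and 0.0037 for NCI-H660. With the replicate block the number of members called was 2 in C4-2B, 5 in NCI-H660, 6 for the difference of effects and 6 between the lines. In C4-2B the count of 2 became 1 with DESeq2, with at least 10 counts in every library, and with limma on log2(TPM + 1), log2(TPM + 0.1), unfiltered log2(TPM + 1) and, added after seeing the data, centred log2(TPM + 1), and 4 in the fit of all groups. In NCI-H660 the count of 4 became 2 at a minimum log2 fold change of 1 and 0 with limma on unfiltered log2(TPM + 1), where 4 members had an unadjusted p under 0.05 and 1 of 29413 genes was called. Between the lines the count of 6 was 8 on centred log2(TPM + 1), with DUSP5 and SPRY1 added, and 6 under the other alternatives that kept all libraries. For the difference of effects it was 4 with DESeq2 and on centred log2(TPM + 1). Leaving out a library gave 1 to 2 members in C4-2B (1 without control 1 or control 2), 4 to 5 in NCI-H660, 4 to 6 for the difference of effects and 6 to 7 between the lines. In those fits the lone library of a group is assumed to vary like the other groups.

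Of 533 single-gene values 472 kept their direction and side of the threshold, 26 lost the call, 14 gained it and 21 changed sign. SPRED2 in C4-2B became −0.09, −0.10 and −0.09 on the TPM scales and ranged from −0.02 to 0.09 when a library was left out (−0.01 without MYCL library 1). The difference of effects became 0.49 and 0.58 for SPRY4 and −0.37 and −0.28 for SPRED1 on log2(TPM + 1) and its centred form, and with a library left out it ranged from −0.36 to 0.41 for SPRED1 (−0.04, −0.05 and −0.13 among them) and from −0.12 to 0.40 for SPRY1 (−0.09 and −0.01 among them). Between the lines, log2(TPM + 1) gave 0.05 for DUSP5, 0.08 for SPRY1 and 0.26 for SPRY2, which ranged from −0.35 to 0.21 with a library left out (0.05 without shCtrl library 1). None of these was called. On log2(TPM + 1) the median of all genes moved to −0.142 in C4-2B, −0.106 for the difference of effects and 0.525 between the lines, and the share of calls that were higher was 33.5% in C4-2B against 59.2%, 35.7% against 53.5% and 71.1% against 52.2%. The cause was not tested. Depth limits DUSP6, SPRY4, ETV4 and ETV5 in C4-2B and SPRED1 in NCI-H660, each at under 30 counts a library.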
